A study of Homo sapiens with 8 samples.

Results

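Aminoacyl-tRNA synthetases join each amino acid to its tRNA, and transcripts of 36 such genes, chosen by gene name, were examined among the 58735 genes of the deposited table. Of these, 17 encode enzymes of the cytosol and 16 encode enzymes of mitochondria, with names that end in 2. GARS, KARS and QARS were grouped as serving both compartments and are called dual here. RNA was sequenced from HCT116 cells, a human line derived from a colorectal carcinoma, as 8 libraries in 4 groups of 2, and all cells carried an shRNA (short hairpin RNA). One group expressed a control shRNA and was kept for 24 h in DMEM with 0 mM glucose. Another group expressed MAPKAPK2 shRNA 1 and another MAPKAPK2 shRNA 2, both with 20 mM glucose and without a stated time. The last expressed the control shRNA and was kept for 24 h with 20 mM glucose, and it is the baseline of every comparison with control, so those comparisons share its libraries. Whether each shRNA line is a clone or a pool is not stated in these sources.

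Every synthetase binds its own amino acid and tRNA, and a charged tRNA then delivers that amino acid to the ribosome. Mitochondria translate the few proteins of their own genome with tRNAs encoded there, which enzymes imported from the cytosol must charge. Several cytosolic enzymes sit in a multi-synthetase complex held together by the scaffold proteins AIMP1, AIMP2 and EEF1E1 (AIMP3). When amino acids run short or the endoplasmic reticulum is stressed, phosphorylation of eIF2 alpha favours translation of the transcription factor ATF4, which binds C/EBP-ATF response elements (CARE) and activates amino acid transporters, biosynthetic enzymes and many cytosolic synthetases. MAPKAPK2 encodes MK2, which acts on mRNA-binding proteins once p38 MAP kinases have switched it on under stress.

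Reads in genes numbered 14252316 to 19975449 per library. The labels do not call the replicates separate cultures, so each p-value reflects the spread of these libraries, which may be technical. That spread is a single estimate per gene, shared by all 4 groups, although the pairs were not equally alike. A chi-square per gene, larger where 2 libraries differ more, was 6.08 in the 20 mM controls and 7.07 with shRNA 1. It was 11.55 at 0 mM and 30.58 with shRNA 2, so SEs and p-values that involve shRNA 2 are the least certain. Through the shared estimate the shRNA 2 pair also enters the SEs and p-values of every other comparison, glucose included. MAPKAPK2 mRNA stood at 16.3% (shRNA 1) and 5.46% (shRNA 2) of the mean of the 20 mM controls. The epithelial markers EPCAM, KRT8, KRT18, CDH1, KRT19 and CLDN7 all exceeded 1 FPKM (fragments scaled to exon length and library size) in every library. Their sum was 1248 to 1833 FPKM. With shRNA 1 CDH1 rose (0.89 on the log2 scale, limma adjusted p = 0.0029) and none of the 6 fell, while with shRNA 2 4 of the 6 fell, CDH1 among them (−0.45, limma adjusted p = 0.030). Of 8 markers of blood, endothelial, fibroblast, smooth muscle and liver cells, COL1A1 alone exceeded 1 FPKM in every library. It fell with both shRNAs, at 3.84 and 4.03 FPKM with shRNA 1 and 4.58 and 4.09 FPKM with shRNA 2, against 6.72 and 6.28 FPKM in controls. No other of these 8 markers exceeded 0.582 FPKM in any library. Reads from mitochondrial DNA were 11.1% and 9.62% of all reads in genes with shRNA 1, 7.06% and 9.10% with shRNA 2, and 6.83% and 7.82% in the 20 mM controls. The part of these shifts in the results below was not tested. In bulk RNA, fewer cells that express a gene and less of its RNA per cell cannot be told apart.

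ATF4 binds the CARE sequence, so the promoters of these genes were searched for it. RefSeq promoters of GRCh38.p14, from 250 bases before to 50 after each annotated start, were at hand for 30 of the 36 genes (not DARS, LARS, VARS, YARS, AARS2 and VARS2). The 8-base element TGATGCAA, on either strand, was found in 6 of 13 cytosolic promoters, in 0 of 3 dual and in 0 of 14 mitochondrial ones. It was found in 0.866% of all 35116 promoters of this length. The matching windows of 30 bases follow, 5′ to 3′ on the gene's strand with the element in capitals, because they show that 5 of the 6 copies run in the same orientation and that 5 of the 6 lie close to the start site.
AARS: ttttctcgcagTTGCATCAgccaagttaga
CARS: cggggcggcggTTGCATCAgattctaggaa
IARS: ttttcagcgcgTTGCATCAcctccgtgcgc
MARS: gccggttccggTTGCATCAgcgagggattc
TARS: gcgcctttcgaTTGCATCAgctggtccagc
NARS: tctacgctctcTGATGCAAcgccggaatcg

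The windows lie at chr16:70289675-70289704 (AARS, minus strand), chr11:3057407-3057436 (CARS, minus), chr9:92293692-92293721 (IARS, minus), chr12:57488053-57488082 (MARS, plus), chr5:33440956-33440985 (TARS, plus) and chr18:57621804-57621833 (NARS, minus). Counted from the annotated start, the element begins at base −187 in AARS, −13 in IARS, −4 in MARS, −2 in CARS, 3 in TARS and 15 in NARS. AARS thus carries the most distant copy, inside a stretch that is printed here because AARS gave the largest value after glucose withdrawal. It covers bases −250 to −101, chr16:70289607-70289756 on the minus strand.
AARS upstream: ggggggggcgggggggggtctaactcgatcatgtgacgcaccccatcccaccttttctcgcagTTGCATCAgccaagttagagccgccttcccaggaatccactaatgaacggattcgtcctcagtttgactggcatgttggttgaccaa

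The looser pattern TGATGNAA, which includes the 8-base element, was found in 3.62% of all promoters and in 1 further synthetase, mitochondrial YARS2. There the matching letters are shown at base −197, chr12:32756076-32756105 on the minus strand.
YARS2: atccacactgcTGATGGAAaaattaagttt

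The E-box CACGTG was found in 7.26% of all promoters and in those of IARS, CARS2, EARS2 and MARS2. The CRE TGACGTCA was found in 1.85% of all promoters and in no synthetase promoter searched. The NRF1 motif was found in 1.24% and in MARS2. Median GC content was 62.0% for the cytosolic, 60.8% for the dual and 61.2% for the mitochondrial promoters, against 58.0% for all. A match is a description of letters and not evidence of binding.

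In the 20 mM control libraries the cytosolic and dual synthetases were abundant and most mitochondrial ones were low. Per length, the cytosolic genes had a median level of 35.0 FPKM, from CARS at 7.84 to VARS at 66.1. The dual genes had a median of 51.0 FPKM, from KARS at 46.0 to GARS at 54.2, and the mitochondrial genes of 7.43 FPKM, from SARS2 at 1.70 to IARS2 at 43.6. The classes overlapped, since IARS2, YARS2, HARS2, RARS2, NARS2, EARS2 and VARS2 exceeded CARS. All 36 genes passed the filter of 1 FPKM in at least 2 libraries, and the scarcest, SARS2, still had 58 to 136 reads per library.

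Each of the 16 mitochondrial enzymes was set beside the cytosolic enzyme for the same amino acid, with EPRS, which charges both glutamate and proline tRNAs, serving as partner of EARS2 and of PARS2. The cytosolic partner stood higher in 15 of 16 pairs, with a median of 5.29-fold in mean FPKM. The widest gap was 29.9-fold between FARSA, the catalytic subunit of cytosolic phenylalanyl-tRNA synthetase, and FARS2. For histidine the order was the other way, with HARS at 0.950 times HARS2, and for tyrosine YARS was at 1.02 times YARS2. For tyrosine the partners differed by less than the spread between libraries, with YARS at 23.1 and 23.1 FPKM and YARS2 at 22.1 and 23.2 FPKM.

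**Figure D1:**
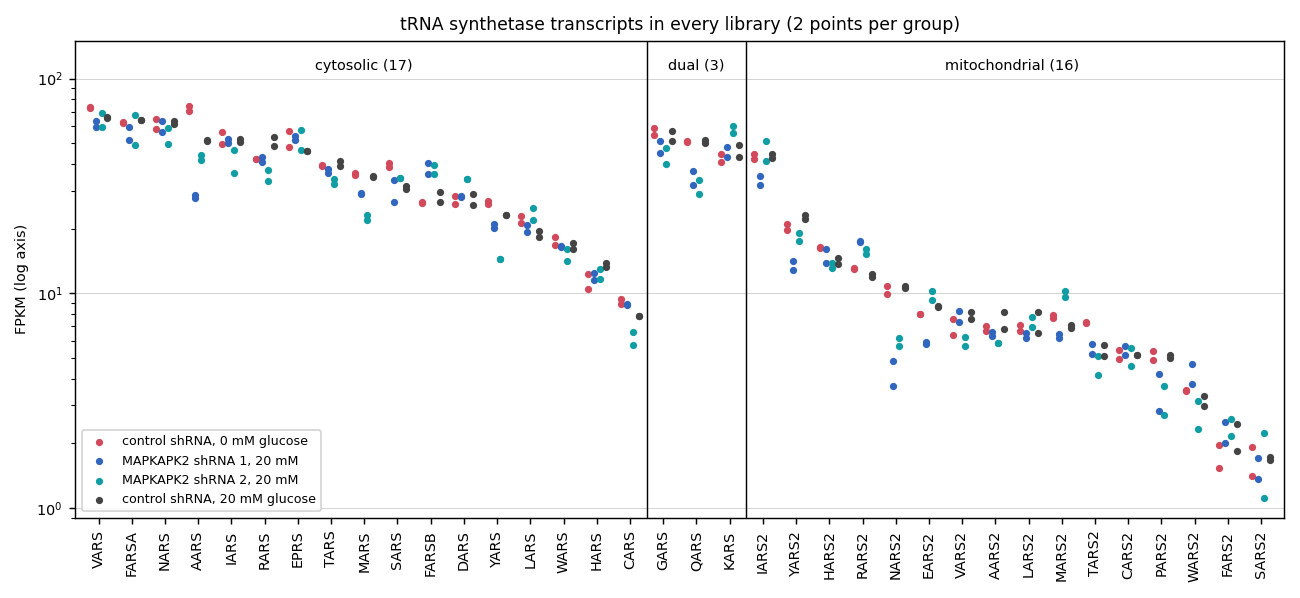
FPKM on a log axis of the 36 synthetase genes, ordered within each class by their mean in the 20 mM controls; each gene has 2 points per group, in the order control 0 mM, MAPKAPK2 shRNA 1, MAPKAPK2 shRNA 2 and control 20 mM. Most mitochondrial genes lie below 10 FPKM, while IARS2, at 43.6 FPKM in the 20 mM controls, lies among the cytosolic ones.

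The balance between the compartments was nearly the same in all libraries. The mean log2(FPKM + 1) of cytosolic genes exceeded that of mitochondrial genes by 1.96 and 2.07 at 0 mM, 2.05 and 2.03 with shRNA 1, 1.88 and 1.95 with shRNA 2, and 1.95 and 1.94 in the 20 mM controls. The 0 mM and shRNA 1 libraries thus lay above both controls and the shRNA 2 libraries on either side of them. Summed over the 16 mitochondrial genes, the level was 165 and 164 FPKM at 0 mM, 141 and 137 FPKM with shRNA 1, 155 and 161 FPKM with shRNA 2, and 161 and 167 FPKM in the 20 mM controls. The shRNA 1 libraries held the lowest mitochondrial sums of the 8.

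The first comparison asked what 24 h without glucose did to these genes. AARS, which charges alanine tRNA and proofreads for serine, had the largest difference, with SARS (serine) and mitochondrial TARS2 (threonine) next, but 0 of 36 synthetases passed the test. The background was 0% of 16239 tested genes in limma on log2(FPKM + 1), where an adjusted p (Benjamini-Hochberg) under 0.05 counted as passing. In that fit 1421 genes, or 8.75%, and 5 of the 36 synthetases had an unadjusted p under 0.05. Whole reads were recovered from the FPKM, and limma voom on them called 28 genes (0.172%), again with 0 synthetases.

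AARS (ENSG00000090861, chromosome 16 from 70252295 to 70289543 on GRCh38) stood at 70.8 and 74.7 FPKM at 0 mM, against 51.8 and 51.2 FPKM at 20 mM. The 0 mM libraries were the highest of all 8, and the groups did not overlap. On log2(FPKM + 1) the difference was 0.49 (SE 0.08, 95% interval 0.30 to 0.68, limma adjusted p = 0.22). Over the other settings tried it was 0.45 to 0.53, with an adjusted p of 0.105 to 0.900.

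SARS stood at 38.7 and 40.3 FPKM at 0 mM and 30.5 and 31.7 FPKM at 20 mM, a difference of 0.33 (SE 0.12, limma adjusted p = 0.51). TARS2 stood at 7.37 and 7.24 FPKM at 0 mM and 5.12 and 5.73 FPKM at 20 mM, a difference of 0.37 (SE 0.12, limma adjusted p = 0.48). Both were higher at 0 mM in every library, and neither passed. TARS2 was the sole mitochondrial gene with an unadjusted p under 0.05, and its cytosolic partner TARS gave −0.03.

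At the other end were RARS (arginine), HARS (histidine) and mitochondrial FARS2. RARS stood at 42.1 and 42.3 FPKM at 0 mM and 48.4 and 53.5 FPKM at 20 mM, a log2 difference of −0.26 (SE 0.10, limma adjusted p = 0.53). HARS stood at 12.2 and 10.5 FPKM at 0 mM and 13.2 and 13.8 FPKM at 20 mM, a difference of −0.23 (SE 0.11, limma adjusted p = 0.60). In both genes each 0 mM library lay below each 20 mM library. FARS2 stood at 1.97 and 1.54 FPKM at 0 mM and 1.84 and 2.45 FPKM at 20 mM, so its groups overlapped, with a difference of −0.19 (SE 0.17, limma adjusted p = 0.81).

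The commonly listed ATF4 targets and the other cytosolic and dual genes lay mostly on different sides of 0. Of the 13 so listed, from general knowledge, 11 had a difference above 0, with a median of 0.14 and a range of −0.03 to 0.49. Of the 7 others (DARS, FARSA, FARSB, HARS, RARS, KARS and QARS), 0 were above 0, with a median of −0.09. Libraries did not overlap and were higher at 0 mM for 8 of the 13 (AARS, CARS, EPRS, LARS, MARS, SARS, VARS and YARS), and lower at 0 mM for 4 of the 7 (FARSA, FARSB, HARS and RARS). The background of such separation was 19.1% of tested genes upward and 22.2% downward. No test was made of the difference between these sets. With quantile normalization 13 of the 13 and 2 of the 7 were above 0, and 2 of the 7 were also above 0 without the first 0 mM library or without the second 20 mM library. Without the second 0 mM library the median of the 13 was 0.07.

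The 16 mitochondrial genes lay on both sides of 0, with 7 above and 9 below 0, a median of −0.02 and a range of −0.19 to 0.37. The median was 0.04 for all cytosolic and 0.00 for the dual genes, against −0.01 for all tested genes. Libraries did not overlap for 5 of the 16 mitochondrial genes upward (HARS2, MARS2, RARS2, TARS2 and WARS2) and 3 downward (EARS2, VARS2 and YARS2). Of all tested genes 19.1% were so separated upward and 22.2% downward, and no test was made of the difference. The 6 genes with the 8-base CARE were not the 6 highest, since their median was 0.04. AARS (0.49) and CARS (0.20) lay at the upper end, and IARS (0.04), MARS (0.03), NARS (−0.02) and TARS (−0.03) near 0. The commonly listed targets SARS (0.33), EPRS (0.18), WARS (0.07) and GARS (0.06) had no such element in the window searched.

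**Figure D2:**
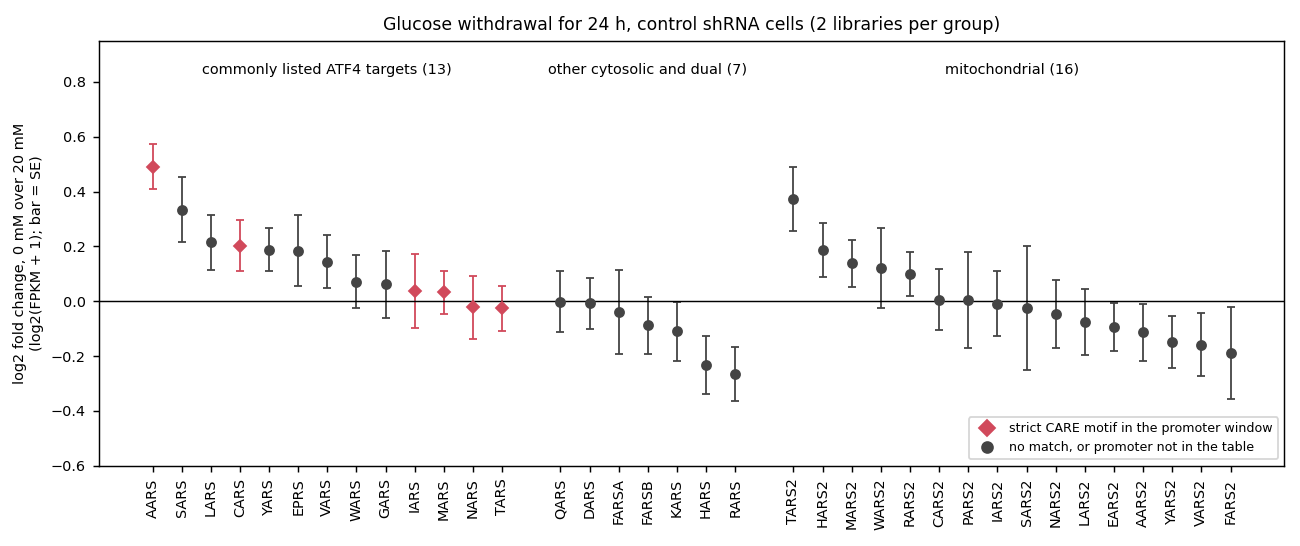
Log2 fold change of log2(FPKM + 1), 0 mM over 20 mM glucose in control shRNA cells, for the 36 genes in 3 sets, with bars of 1 SE; diamonds mark genes with the 8-base CARE in the promoter window. The commonly listed ATF4 targets run from −0.03 to 0.49 and the other cytosolic and dual genes from −0.26 to −0.00, and no point passed the test.

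Other genes of the ATF4 response, from a list of 38 without synthetases, lay mostly above 0 in this comparison. Of the 34 tested, 29 had a difference above 0, with a median of 0.28, and 0 passed in the fit to log2(FPKM + 1). The fit to recovered reads called 5 of them, all upward (DDIT3, DDIT4, PCK2, STC2 and TRIB3). MARS shares 5.05% of its exon bases with DDIT3 on the opposite strand, and whether the counting used strand is not stated in these sources. DDIT3 stood at 17.8 and 15.4 FPKM at 0 mM and 3.66 and 5.67 FPKM at 20 mM, while MARS stood at 36.3 and 35.4 FPKM at 0 mM and 35.2 and 34.8 FPKM at 20 mM.

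The companions of the synthetases gave no call either. The scaffold proteins AIMP1, AIMP2 and EEF1E1 had a median difference of −0.05, and EEF1E1 the lowest value, −0.49 (SE 0.10, limma adjusted p = 0.33). The 4 helpers of mitochondrial tRNA charging (GATB, GATC, QRSL1 and MTFMT), which make glutaminyl and formylmethionyl tRNAs, had a median of −0.07, with 0 of 4 above 0. Of 77 tested mitochondrial ribosomal protein genes 14 were above 0, with a median of −0.10, and of 20 RNA polymerase III genes 4 were, with a median of −0.08. Of 5 tested genes of tRNA proofreading and export, which include the tRNA exporter XPOT, 3 were above 0, with a median of 0.11.

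HARS and HARS2, the histidine pair, are transcribed away from each other from starts 85 bases apart on chromosome 5 and share 437 exon bases on opposite strands. The ratio of HARS2 to HARS was 1.34 and 1.55 at 0 mM and 1.04 and 1.07 at 20 mM, so the groups did not overlap. HARS2 itself stood at 16.4 and 16.2 FPKM at 0 mM and 13.7 and 14.7 FPKM at 20 mM, a log2 difference of 0.19 (SE 0.10, limma adjusted p = 0.66). The 2 genes differed in opposite directions, and neither passed. The pair was singled out after its values were seen. With shRNA 1 the ratio was 1.30 and 1.202, and with shRNA 2 1.07 and 1.13.

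The second comparison set cells with MAPKAPK2 shRNAs against control at 20 mM glucose, as the mean of both shRNAs minus control. The time was 24 h for the controls and was not stated for either MAPKAPK2 shRNA. The part of time, or of the cell line made with each shRNA, in these differences was not tested. NARS2, QARS, AARS, YARS2, MARS, YARS and RARS fell, and RARS2 and FARSB rose, so all 3 classes held genes that moved. A gene passed at an adjusted p under 0.05 with the same sign for both shRNAs. In all, 9 of 36 synthetases passed (25%), against a background of 17.3% of tested genes, with 7 down against 7.77% and 2 up against 9.56%. By class 1 cytosolic gene rose and 4 fell of 17, 0 dual genes rose and 1 fell of 3, and 1 mitochondrial gene rose and 2 fell of 16. The medians of the log2 fold changes were −0.14 for cytosolic, −0.24 for dual and −0.09 for mitochondrial genes, against −0.00 for all tested genes.

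NARS2, which charges asparagine tRNA in mitochondria, fell most. The gene (ENSG00000137513, chromosome 11 from 78435961 to 78574874) stood at 3.69 and 4.85 FPKM with shRNA 1 and 5.68 and 6.21 FPKM with shRNA 2, against 10.6 and 10.8 FPKM in controls. Every knockdown library was below every control, and the 0 mM controls, at 10.8 and 9.93 FPKM, stood with the 20 mM ones. On the log2 scale NARS2 changed by −0.96 (SE 0.11, limma adjusted p = 0.0023), from 219 to 703 reads per library. Its cytosolic partner NARS did not pass, at 63.1 and 56.6 FPKM with shRNA 1, 49.8 and 58.7 FPKM with shRNA 2 and 61.6 and 63.7 FPKM in controls, with a change of −0.14 (SE 0.10, limma adjusted p = 0.39). The ratio of NARS2 to NARS was 0.0584 and 0.0858 with shRNA 1, 0.114 and 0.106 with shRNA 2 and 0.172 and 0.170 in controls.

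QARS, the glutaminyl enzyme placed in the dual class and a member of the multi-synthetase complex, was lower with both hairpins to a like extent. The gene (ENSG00000172053, chromosome 3 from 49095932 to 49105135) stood at 37.3 and 31.8 FPKM with shRNA 1 and 33.8 and 28.99 FPKM with shRNA 2, against 50.2 and 51.8 FPKM in controls. QARS changed by −0.62 on the log2 scale (SE 0.10, limma adjusted p = 0.0075). The difference between the hairpins was −0.13, with a 95% interval of −0.40 to 0.13. The other dual genes did not pass, with GARS at −0.24 and KARS at 0.16.

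AARS fell mostly with shRNA 1. It stood at 28.6 and 27.7 FPKM with shRNA 1 and 44.2 and 41.6 FPKM with shRNA 2, against 51.8 and 51.2 FPKM in controls. The mean change was −0.55 (SE 0.07, limma adjusted p = 0.0036). With shRNA 1 alone it was −0.85 (adjusted p = 0.0017) and with shRNA 2 alone −0.26 (adjusted p = 0.072, not passed), in the same limma fit. AARS2, the mitochondrial alanyl enzyme, stood at 6.30 and 6.63 FPKM with shRNA 1, 5.87 and 5.84 FPKM with shRNA 2 and 8.18 and 6.82 FPKM in controls, a change of −0.24 (SE 0.09, limma adjusted p = 0.11). So the alanine pair differed in call and not in sign.

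MARS (methionine) and YARS (tyrosine) were lowest with shRNA 2. MARS stood at 29.04 and 29.2 FPKM with shRNA 1 and 21.99 and 23.2 FPKM with shRNA 2, against 35.2 and 34.8 FPKM in controls, a mean change of −0.43 (SE 0.07, limma adjusted p = 0.0073). YARS stood at 20.9 and 20.1 FPKM with shRNA 1 and 14.5 and 14.4 FPKM with shRNA 2, against 23.1 and 23.1 FPKM in controls, a mean change of −0.40 (SE 0.07, limma adjusted p = 0.0092). In both genes all knockdown libraries lay below all controls. MARS2, the mitochondrial methionyl enzyme, stood at 6.46 and 6.17 FPKM with shRNA 1, 9.57 and 10.3 FPKM with shRNA 2 and 6.87 and 7.11 FPKM in controls. Its mean change of 0.16 (SE 0.07, limma adjusted p = 0.18) thus joined values on either side of the controls.

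For tyrosine and arginine both partners passed. YARS2 (ENSG00000139131) stood at 14.2 and 12.8 FPKM with shRNA 1 and 19.0 and 17.5 FPKM with shRNA 2, against 22.1 and 23.2 FPKM in controls, a change of −0.50 (SE 0.08, limma adjusted p = 0.0083). YARS and YARS2 thus both fell. YARS2 was lower with shRNA 1 and YARS with shRNA 2, so that the ratio of YARS2 to YARS was 0.676 and 0.637 with shRNA 1, 1.31 and 1.21 with shRNA 2 and 0.954 and 1.00 in controls.

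RARS and RARS2 moved in opposite directions. RARS stood at 42.9 and 40.9 FPKM with shRNA 1 and 33.2 and 37.6 FPKM with shRNA 2, against 48.4 and 53.5 FPKM in controls, and fell by 0.39 on the log2 scale (SE 0.08, limma adjusted p = 0.022). RARS2 (ENSG00000146282) stood at 17.4 and 17.4 FPKM with shRNA 1 and 16.1 and 15.3 FPKM with shRNA 2, against 11.9 and 12.3 FPKM in controls, and rose by 0.42 (SE 0.07, limma adjusted p = 0.0084). The ratio of RARS2 to RARS was 0.405 and 0.426 with shRNA 1, 0.486 and 0.407 with shRNA 2 and 0.246 and 0.229 in controls.

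FARSB, the regulatory subunit of cytosolic phenylalanyl-tRNA synthetase, rose while the catalytic subunit FARSA did not pass. FARSB stood at 40.4 and 35.9 FPKM with shRNA 1 and 35.95 and 39.7 FPKM with shRNA 2, against 26.6 and 29.8 FPKM in controls, a change of 0.42 (SE 0.09, limma adjusted p = 0.022). FARSA stood at 59.2 and 51.7 FPKM with shRNA 1, 67.7 and 49.3 FPKM with shRNA 2 and 64.2 and 64.0 FPKM in controls, a change of −0.18 (SE 0.13, limma adjusted p = 0.40). The 2 proteins form the enzyme in equal numbers, whereas the mRNA ratio of FARSB to FARSA was 0.683 and 0.695 with shRNA 1, 0.531 and 0.805 with shRNA 2 and 0.414 and 0.465 in controls. LARS (leucine) had the next highest value without passing, at 19.2 and 20.7 FPKM with shRNA 1, 21.99 and 25.045 FPKM with shRNA 2 and 18.3 and 19.5 FPKM in controls, a change of 0.19 (SE 0.09, limma adjusted p = 0.18).

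**Figure D3:**
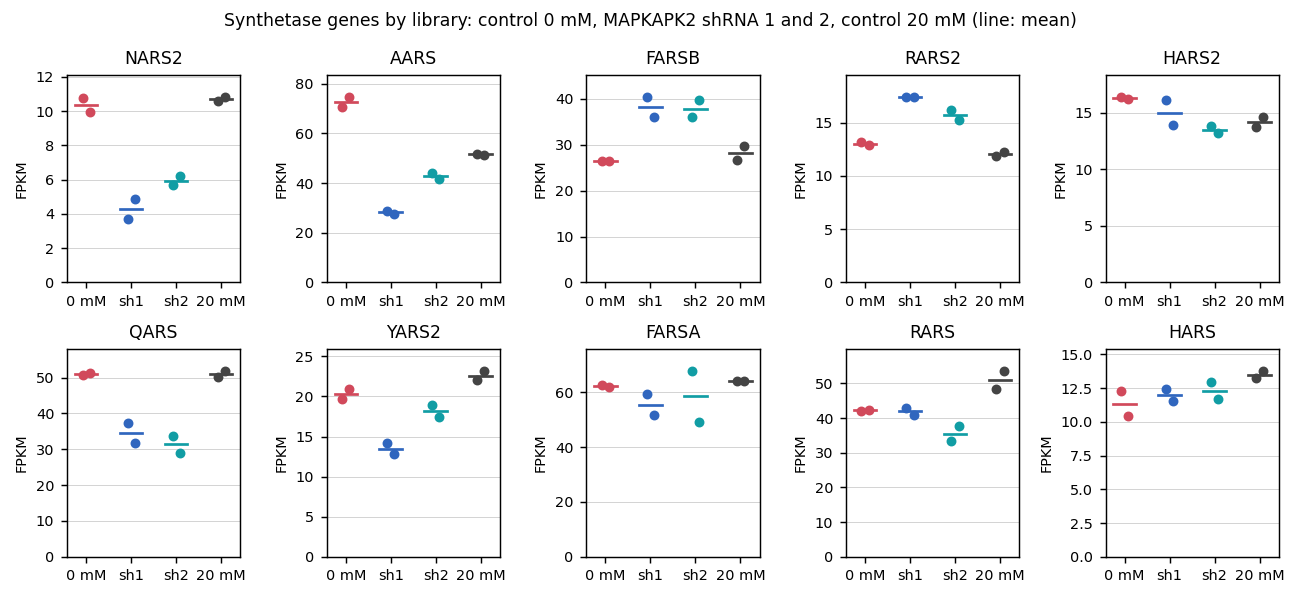
FPKM in each library of 10 synthetase genes, with axes from 0; points are libraries and lines are group means, in the order control 0 mM, MAPKAPK2 shRNA 1 (sh1), MAPKAPK2 shRNA 2 (sh2) and control 20 mM. NARS2, at 3.69 to 6.21 FPKM in the knockdown libraries and 10.6 and 10.8 FPKM in the 20 mM controls, and QARS were below both 20 mM controls with either hairpin, and FARSB and RARS2 above.

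These calls rested on the control libraries to different degrees. NARS2 passed in every alternative, with a highest adjusted p of 0.034. Without the first 20 mM control the calls of AARS, MARS, YARS, RARS, QARS, YARS2, RARS2 and FARSB were lost, and without the second one those of the same genes other than AARS. Without the first, AARS had an adjusted p of 0.052. RARS was also lost without either shRNA 1 library, and FARSB without the first. No fold change of the 9 changed sign in any alternative.

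Each hairpin was also set against control on its own. With shRNA 1, 7 of 36 passed against a background of 19.8% (9.35% up and 10.5% down). FARSB (0.42) and RARS2 (0.49) rose, while NARS2 (−1.16), AARS (−0.85), YARS2 (−0.71), QARS (−0.56) and EARS2 (−0.49) fell. With shRNA 2, 8 of 36 passed against a background of 18.8% (11.1% up and 7.73% down). MARS2 (0.45), FARSB (0.41) and RARS2 (0.35) rose, while NARS2 (−0.76), QARS (−0.69), YARS (−0.64), MARS (−0.61) and RARS (−0.51) fell. NARS2, QARS, FARSB and RARS2 were called with both hairpins, which share the same control libraries. The share of all tested genes called with both hairpins was not counted, so this overlap has no background beside it. AARS, YARS2, MARS, YARS and RARS, which passed in the mean, passed with 1 hairpin alone, as did EARS2 and MARS2, which did not pass in the mean.

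Single libraries mattered here too. With shRNA 1 the calls of AARS, NARS2 and YARS2 held in every alternative, while without either 20 mM control or without the second shRNA 1 library those of FARSB, QARS, EARS2 and RARS2 were lost. Without the first shRNA 1 library FARSB, EARS2 and RARS2 were lost. With shRNA 2 the calls of MARS and YARS held in every alternative, while without either 20 mM control those of FARSB, RARS, QARS, MARS2, NARS2 and RARS2 were lost. FARSB and RARS2 were lost there without either shRNA 1 library, and FARSB without the second shRNA 2 library. Quantile normalization also lost FARSB and RARS2 with shRNA 2, and leaving out the filter lost FARSB with either hairpin. FARSB was also lost with either hairpin without either 0 mM library.

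**Figure D4:**
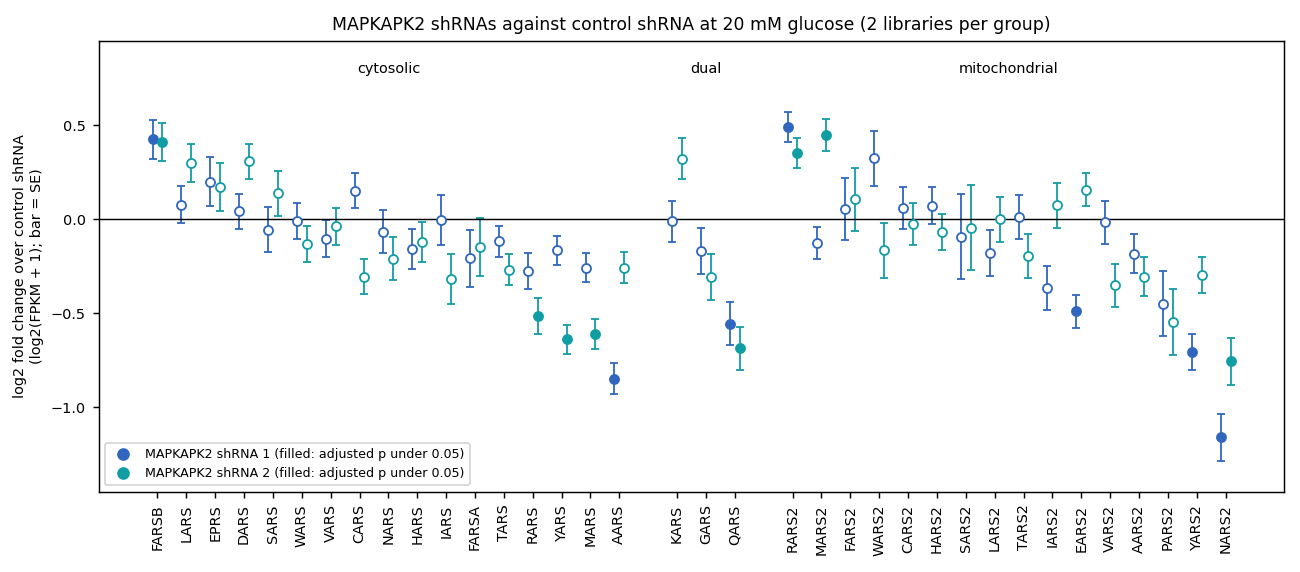
Log2 fold change of log2(FPKM + 1) over the control shRNA at 20 mM glucose, for MAPKAPK2 shRNA 1 and shRNA 2, with bars of 1 SE; filled points passed at a limma adjusted p under 0.05, and genes are ordered within each class by the mean of both. NARS2 has the lowest values (−1.16 and −0.76) and RARS2 and FARSB lie above 0 with both hairpins, while AARS, EARS2, MARS2 and YARS differ between them.

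The hairpins were then compared with each other, shRNA 2 minus shRNA 1, in which the controls serve only the shared estimate of the spread. Here 8 of 36 synthetases passed, or 22.2%, against a background of 22.2% of tested genes, so the share was that of all genes. Upward 13% and downward 9.13% of all genes passed. AARS, EARS2, MARS2, IARS2 and YARS2 were higher with shRNA 2, and YARS, CARS and MARS were lower. EARS2, the mitochondrial glutamyl enzyme, gave the largest value, at 10.3 and 9.26 FPKM with shRNA 2 and 5.79 and 5.93 FPKM with shRNA 1, a difference of 0.65 (SE 0.09, limma adjusted p = 0.0036). AARS gave 0.59 (SE 0.08, limma adjusted p = 0.0041) and MARS2 0.58 (SE 0.09, limma adjusted p = 0.0052). On the other side YARS gave −0.48, CARS −0.46 and MARS −0.35. All 3 encode cytosolic enzymes. WARS2 (tryptophan, mitochondrial) had the lowest value without passing in this fit, at 2.32 and 3.15 FPKM with shRNA 2 and 4.68 and 3.77 FPKM with shRNA 1, a difference of −0.49 (SE 0.15, limma adjusted p = 0.055). Over the alternatives the WARS2 difference was −0.66 to −0.33, and it passed in some of them. Limma voom on recovered reads called 12 of 36 synthetases between hairpins, 7 of them mitochondrial and 1 dual, against 4604 of 16239 tested genes.

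Members of the multi-synthetase complex were set beside other genes of their class in the knockdown, where 7.77% of all tested genes fell, 9.56% rose and 17.3% passed in all. Of its 8 synthetases 3 fell (MARS, RARS and QARS) and 0 rose, with 4 above and 4 below 0. Of the 12 cytosolic and dual synthetases outside it 2 fell (AARS and YARS) and 1 rose (FARSB). None of the scaffold genes AIMP1, AIMP2 and EEF1E1 passed in any comparison, with a median of −0.12 in the knockdown. By catalytic class, and with no test of the difference, 6 of 18 class I and 3 of 17 class II genes passed, with EPRS, which holds both catalytic sites, counted in neither.

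Of the 13 commonly listed ATF4 targets 3 fell with the knockdown (AARS, MARS and YARS) and 0 rose, with a median of −0.14. Of the 7 other cytosolic and dual genes 2 fell and 1 rose, also with a median of −0.14. All 6 genes with the 8-base CARE lay below 0 in the mean of both hairpins, from −0.55 to −0.08. Of them 2 passed, where 17.3% of all tested genes did. With shRNA 1 alone 5 of the 6 lay below 0 and 1 passed, with CARS at 0.15 and IARS at −0.004. With shRNA 2 alone 6 lay below 0 and 1 passed. Of the 10 cytosolic and dual genes searched without the element, 6 lay below 0 in the mean and 3 passed. No test was made of the difference. Of the 34 tested ATF4 response genes outside the synthetases 12 fell and 2 rose, with a median of −0.23, against 7.77% down and 9.56% up of all tested genes. With shRNA 1 alone 8 fell and 6 rose (median −0.13), against 10.5% down and 9.35% up of all tested genes. With shRNA 2 alone 13 fell and 2 rose (median −0.29), against 7.73% down and 11.1% up. ATF4 itself fell by 0.46 on the log2 scale in the mean (SE 0.10, limma adjusted p = 0.023). It did not pass with shRNA 1 (−0.28, limma adjusted p = 0.14) and passed with shRNA 2 (−0.64, limma adjusted p = 0.011). In the mean ATF3 fell by 1.47, CHAC1 by 0.98 and PHGDH by 0.83, and with shRNA 1 alone only ATF3 of these 3 passed.

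In the mitochondrial translation machinery around the 16 enzymes, 4 of 77 tested ribosomal protein genes fell with the knockdown and 2 rose, with a median of −0.10, shares no higher than the 7.77% down and 9.56% up of all tested genes. With shRNA 1, 6 fell and 1 rose (median −0.21), where 10.5% of all tested genes fell and 9.35% rose. With shRNA 2, 4 fell and 5 rose (median 0.02), where 7.73% of all tested genes fell and 11.1% rose. Between hairpins, shRNA 2 minus shRNA 1, 11 were higher and 6 lower, against 13% higher and 9.13% lower of all tested genes. These counts were near or below the shares of all genes. MRPL49 (−0.90), MRPS2 (−0.57) and MRPL43 (−0.47), all of which fell, had the smallest p. None of GATB, GATC, QRSL1 and MTFMT passed. RNA polymerase III, which transcribes tRNA genes, had 2 of 20 genes down in the mean, POLR3K (−1.03) and POLR3D (−0.31), and 1 up, POLR3B (0.40). With shRNA 1 alone 5 of the 20 fell and 0 rose (median −0.25), where 10.5% of all tested genes fell and 9.35% rose. With shRNA 2 alone 2 fell and 2 rose (median −0.09), where 7.73% fell and 11.1% rose. In the mean, 0 of 5 tested genes of tRNA proofreading and export passed and all 5 lay above 0. Among them XPOT was at 0.34 (SE 0.12, limma adjusted p = 0.0997). The fit to recovered reads called XPOT up (0.35, limma voom adjusted p = 0.042).

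The remaining synthetases did not pass in limma on log2(FPKM + 1) in any comparison of a shRNA with control or between glucose levels. Among cytosolic genes these were DARS, EPRS, HARS, IARS, LARS, NARS, SARS, TARS, VARS, WARS, FARSA and, outside the comparison of hairpins, CARS. Among mitochondrial genes they were AARS2, CARS2, FARS2, HARS2, LARS2, PARS2, SARS2, TARS2, VARS2, WARS2 and, outside the comparison of hairpins, IARS2. PARS2 (proline) came close in the knockdown, at 4.19 and 2.84 FPKM with shRNA 1 and 2.72 and 3.68 FPKM with shRNA 2, against 5.02 and 5.17 FPKM in controls. Its change was −0.50 (SE 0.15, limma adjusted p = 0.063). All 4 of its knockdown libraries lay below both controls. In limma voom on recovered reads PARS2 passed in the knockdown (adjusted p = 0.029), where 22.7% of tested genes did, and with shRNA 2 (adjusted p = 0.038). That fit also called VARS2 with shRNA 2 (−0.40, adjusted p = 0.043), CARS with shRNA 2 (−0.35, adjusted p = 0.0499) and IARS2 with shRNA 1 (−0.38, adjusted p = 0.037). Among all 16239 tested genes it called 3937 with shRNA 2 and 4133 with shRNA 1.

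Some levels are less certain because genes share sequence. Of the 36 genes, 20 overlap exons of another gene and 2 do so by over 20% of their exon bases, SARS2 (57.0%) and VARS2 (22.0%, same strand). SARS2 shares 46.2% with AC011455.2 on the same strand and 10.8% with MRPS12 on the opposite strand. Annotated pseudogenes exist for 11 of the 36 and held at most 8 reads in any library.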

How the data were processed

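Total RNA was primed with random hexamers, per the labels' protocols; whether strand was kept is not stated there. The submitters' processing notes name DESeq2 1.20.0, featureCounts 1.5.0-p3 and HISAT2 2.0.5, without a role for each. The authors deposited FPKM of 58735 genes in 8 libraries, beside gene lengths; starts, ends and lengths match GENCODE 29 on GRCh38 for all 58735.

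The FPKM steps gave back whole reads for 100% of values (within 0.001 of a step), so the FPKM keep the depth.

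The 16239 genes that reached 1 FPKM in 2 or more libraries were fitted on log2(FPKM + 1), which understates the change of low genes, with limma 3.58.1 in R 4.3.3 (trend, 4 group means of 2 libraries each). P-values were adjusted over all tested genes. Alternatives were a pseudocount of 0.1, no filter, quantile normalization, voom on recovered reads, a replicate block and leaving out each library. Medians and counts over members carry no test.

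Members, classes and lists were chosen with earlier results of these data known; ATF4 targets and complex members come from general knowledge. Given in full were members passing the glucose test in either fit, the 3 largest rises and falls per contrast, and partners of which exactly 1 passed in the knockdown. Up to 3 genes per other list are named by smallest p; the fit to recovered reads named further ones, and ATF4 and XPOT were added after their values were seen. Python 3.11.15 with pandas 2.3.3 searched the RefSeq promoters.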

Additional observations from a re-analysis of the deposited data

Results flagged for a closer look

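For 8 synthetases the 2 hairpins against MAPKAPK2 differed from each other by the limma test of the difference itself, shRNA 2 minus shRNA 1 on log2(FPKM + 1). The differences were 0.65 for EARS2, 0.59 for AARS, 0.58 for MARS2, 0.44 for IARS2 and 0.41 for YARS2. They were −0.35 for MARS, −0.46 for CARS and −0.48 for YARS. Of all tested genes 22.2% passed this test, and 22.2% of the synthetases did.

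EARS2, MARS2 and CARS lay on opposite sides of the controls with the 2 hairpins. EARS2 changed by 0.16 with shRNA 2 and −0.49 with shRNA 1, MARS2 by 0.45 with shRNA 2 and −0.13 with shRNA 1, and CARS by −0.31 with shRNA 2 and 0.15 with shRNA 1. IARS2 changed by 0.07 with shRNA 2, where its libraries (41.3 and 51.2 FPKM) lay on both sides of the controls (42.8 and 44.5 FPKM), and by −0.37 with shRNA 1. AARS, YARS2, MARS and YARS lay below the controls with both hairpins and differed in size. The differences of AARS, EARS2 and MARS2 passed in every alternative. That of YARS was lost without the first shRNA 1 library (adjusted p = 0.060) and that of CARS without either shRNA 1 library. That of YARS2 was lost without either shRNA 1 library or the first shRNA 2 library. That of MARS was lost without either shRNA 1 library or either 20 mM control. That of IARS2 (adjusted p = 0.039 in the limma fit to all libraries) passed in 4 of 13 alternatives, and it was lost without any 1 library other than the first with shRNA 2. The hairpins left different amounts of MAPKAPK2 mRNA, 5.46% of control with shRNA 2 and 16.3% with shRNA 1. The part of that amount in these differences was not tested.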

How the results depend on the processing

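Of 180 member values (36 genes in 5 comparisons) 32 passed. A pseudocount of 0.1 kept all 32, voom on recovered reads kept 32 and added 9, and no filter lost 3. Voom also called more of all genes, 3689 against 2815 in the knockdown. Quantile normalization lost 3, added 9 and turned the sign of 17, none over 0.104 in size. The labels do not say whether replicate numbers pair the samples. Deviations of libraries of the same number from their group means correlated between groups by −0.0295 to 0.179, highest for 0 mM with shRNA 2. With the replicate block all 32 stayed, 5 were added, and the knockdown called 3018 genes, against 2815 without it. A replicate effect shared by groups was not tested further.

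Calls among all genes for glucose, 0 in the fit reported, became 6 without a filter and 28 with voom, and those for the knockdown fell to 1808 without a filter. Without a filter 1 cytosolic gene passed with shRNA 1, where 2223 of 35173 tested genes did. With voom the mitochondrial median with shRNA 1 was −0.1561. With voom 5 mitochondrial genes passed with shRNA 2, where 3937 of 16239 tested genes did, against 3055 in the fit reported. Between hairpins 7 mitochondrial and 1 dual gene passed with voom, where 4604 of 16239 tested genes did, against 3602 in the fit reported. With quantile normalization the cytosolic median was 0.0847 for glucose, 0.0412 with shRNA 1, −0.2476 with shRNA 2 and −0.2388 between hairpins. The dual median was −0.0514 with shRNA 1 and −0.3026 between hairpins, where 1 dual gene and 3590 of 16239 tested genes passed. The mitochondrial median with shRNA 2 was −0.1105. Of the 7 cytosolic and dual genes not listed as ATF4 targets 2 were above 0 for glucose, with a median of −0.0362. The causes were not tested.

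Leaving out 1 library at a time gave 0 to 1 genes for glucose, 686 to 3437 for the knockdown, 942 to 4054 with shRNA 1, 1015 to 3026 with shRNA 2 and 1335 to 3473 between hairpins. Synthetases that passed in the knockdown were 0 to 6 cytosolic, 0 to 1 dual and 1 to 4 mitochondrial, with shRNA 1 they were 1 to 3, 0 to 1 and 2 to 5, with shRNA 2 they were 2 to 6, 0 to 1 and 0 to 3, and between hairpins they were 1 to 5 cytosolic and 2 to 4 mitochondrial. Cytosolic medians were 0.013 to 0.1286 (glucose), −0.1651 to −0.0991 (knockdown), −0.1479 to −0.0227 (shRNA 1), −0.2162 to −0.1428 (shRNA 2) and −0.1823 to −0.0022 (between hairpins). Dual medians were −0.2579 to −0.0751 (shRNA 1), −0.4316 to −0.1858 (shRNA 2) and −0.2336 to −0.0193 (between hairpins). Mitochondrial medians were −0.0537 to 0.0342 (glucose), −0.1319 to −0.0527 (knockdown), −0.129 to −0.042 (shRNA 2) and −0.0847 to 0.0707 (between hairpins). For glucose the median of the listed ATF4 targets was 0.067 to 0.1518, and of the 7 others 0 to 2 were above 0, with a median of −0.1653 to −0.0154. With 2 libraries per group, an arm left with 1 library is assumed to vary like the other groups. The fit to all libraries also shares its spread among the groups, although the shRNA 2 pair differed most. Read depth limits SARS2, PARS2 and FARS2 most, at 58, 102 and 115 reads in their lowest libraries.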
